A study of Saccharomyces cerevisiae with 18 samples.

Results

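The mitochondrial tricarboxylic acid (TCA) cycle of budding yeast is represented here by 10 genes, chosen by their identifiers from a count table of 6837 identifiers. They encode citrate synthase (CIT1, YNR001C), aconitase (ACO1, YLR304C), both subunits of the NAD-dependent isocitrate dehydrogenase (IDH1, YNL037C, and IDH2, YOR136W), and 2 subunits of 2-oxoglutarate dehydrogenase (KGD1, YIL125W, and KGD2, YDR148C). The others are both subunits of succinyl-CoA ligase (LSC1, YOR142W, and LSC2, YGR244C), fumarase (FUM1, YPL262W) and malate dehydrogenase (MDH1, YKL085W). Succinate dehydrogenase, the remaining enzyme of the cycle, is described beside them.

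RNA-seq of polyadenylated RNA was carried out on haploid BY4742 cells in 3 backgrounds. They were wild type (WT), a deletion of the gene for the histone H3 lysine K36 methyltransferase SET2 (set2Δ) and a deletion of BRE1 (bre1Δ), whose product attaches ubiquitin to histone H2B. Cells were grown in YPD, a rich glucose medium, and taken at day 1 or day 4 of chronological aging, in which cells survive without dividing. Each of the 6 groups held 3 libraries, no further treatment was given, and the labels do not say whether the libraries came from separate cultures or how many clones each deletion stands for. P-values therefore set differences against the spread between these libraries, estimated over all 6 groups together, and that spread may be technical.

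The cycle oxidises acetyl groups from pyruvate or fatty acids to carbon dioxide in the mitochondrial matrix, feeds electrons to respiration, and supplies 2-oxoglutarate and oxaloacetate for making amino acids. In yeast most of its genes are repressed while glucose is plentiful and induced as cells turn to respiration, in part through the HAP complex, which binds CCAAT sequences and whose HAP4 subunit is itself repressed by glucose. The genes of the first steps, from CIT1 to IDH2, also respond to the retrograde pathway, in which Rtg1 and Rtg3 bind a site with the core GTCAC when mitochondrial function is impaired.

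The libraries held 8038470 to 29514490 counts, and the count of any of the 10 genes in any library was 1867 to 79131. All 10 genes were among the 6320 that passed the filter on low counts. SET2 had 3 to 9 counts in each set2Δ library and 253 to 624 in each WT library, and BRE1 had 0 or 1 in each bre1Δ library and 953 to 2757 in each WT library. Markers of alpha cells, the mating type of BY4742, were read in every library, at 36.2 to 1570 CPM of library totals for MF(ALPHA)1, 75.9 to 275 for SAG1 and 37.6 to 53.5 for STE3. All 5 a-cell markers were read in every library as well, at 23.7 to 56.0 CPM for STE6, 10.1 to 44.7 for STE2, 7.01 to 39.7 for MFA1, 4.53 to 14.1 for BAR1 and 3.13 to 9.40 for MFA2, and their part in the results was not tested. The WT libraries of day 1 were the most spread, with replicate 2 the lowest of the group for 8 of the 10 genes. TMM factors, which scale the libraries to one another, ran from 0.857 to 0.892 over WT libraries and from 1.033 to 1.139 over those of the deletions, so comparisons of a deletion with WT depend on the scaling and are given below with and without it. Ribosomal protein genes took 2.05% to 2.88% of counts for WT and for day 1 of set2Δ, 4.25% to 4.38% for day 4 of set2Δ, and 4.87% to 8.26% for bre1Δ.

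In the R64 reference, whose build (sacCer3) is that of the files, each of the 10 genes has 1 coding exon, overlaps no annotated gene and shares no stretch of 50 bases with another place in the genome. None lies next to another, and IDH2 (chrXV:580250-581359) and LSC1 (chrXV:593057-594046) are the closest pair. Over the day the ratio between subunit transcripts changed for isocitrate dehydrogenase, succinyl-CoA ligase and also KGD1 and KGD2, as described below. The sequences from 250 bases before to 50 bases into the coding sequence are printed for the subunits of isocitrate dehydrogenase and succinyl-CoA ligase only. They were read from the R64 RefSeq genome, in the direction of the gene, at chrXIV:558953-559252 (minus strand) for IDH1, chrXV:580000-580299 (plus strand) for IDH2, chrXV:592807-593106 (plus strand) for LSC1 and chrVII:979270-979569 (minus strand) for LSC2. Capitals mark CCAAT or GTCAC, either as such or as the reverse complement (ATTGG or GTGAC), and no 2 matches overlap.
IDH1: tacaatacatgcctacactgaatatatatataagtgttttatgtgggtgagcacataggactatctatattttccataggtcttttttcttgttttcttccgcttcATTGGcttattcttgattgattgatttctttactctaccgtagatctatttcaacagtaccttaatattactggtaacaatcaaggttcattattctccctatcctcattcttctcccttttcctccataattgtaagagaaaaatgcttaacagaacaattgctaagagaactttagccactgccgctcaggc
IDH2: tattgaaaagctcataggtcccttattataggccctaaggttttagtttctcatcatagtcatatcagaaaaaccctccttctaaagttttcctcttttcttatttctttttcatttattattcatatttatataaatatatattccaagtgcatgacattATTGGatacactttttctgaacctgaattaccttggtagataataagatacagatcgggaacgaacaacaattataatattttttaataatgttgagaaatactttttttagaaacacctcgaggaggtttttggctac
LSC1: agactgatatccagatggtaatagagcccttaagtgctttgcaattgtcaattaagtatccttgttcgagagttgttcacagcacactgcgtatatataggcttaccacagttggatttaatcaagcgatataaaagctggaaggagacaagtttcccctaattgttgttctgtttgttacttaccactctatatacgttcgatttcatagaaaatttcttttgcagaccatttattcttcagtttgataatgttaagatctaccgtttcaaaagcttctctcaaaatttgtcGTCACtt
LSC2: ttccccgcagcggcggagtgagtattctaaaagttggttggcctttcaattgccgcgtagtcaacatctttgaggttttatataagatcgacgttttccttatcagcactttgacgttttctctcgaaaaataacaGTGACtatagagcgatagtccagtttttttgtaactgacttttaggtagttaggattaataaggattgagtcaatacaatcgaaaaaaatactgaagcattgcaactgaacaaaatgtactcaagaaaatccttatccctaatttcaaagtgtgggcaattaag

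IDH1 and IDH2 each held 1 CCAAT on the opposite strand, with its first base at -144 and -89 from the start codon, and neither held GTCAC. LSC2 held GTCAC on the opposite strand at -114, and LSC1 held it at 43, inside the coding sequence. Over the 10 genes, CCAAT was present in 5 windows (ACO1, IDH1, IDH2, FUM1, MDH1), beside 43.3% of 6001 windows of the same length. GTCAC was present in 4 (KGD1, LSC1, LSC2, FUM1), beside 26.4%. A match is a run of letters and says nothing of binding.

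Transcript levels are compared between genes in FPKM (reads scaled by gene length and library total, as deposited), which accounts for gene length. In WT at day 1 the entry and exit of the cycle were the most abundant: CIT1 stood at 1505 FPKM, ACO1 at 1434 and MDH1 at 1224, while the isocitrate dehydrogenase subunits were lowest, with IDH1 at 324 and IDH2 at 170. By day 4 in WT, CIT1 (1391) and MDH1 (997) still led, ACO1 stood at 563, and FUM1, at 829 on day 1, stood at 319. The order within set2Δ and bre1Δ at day 1 began with the same 4 genes as in WT, CIT1, ACO1, MDH1 and LSC2, in other arrangements, with MDH1 on top in set2Δ (1771). In bre1Δ at day 4 the lowest was FUM1 (144) and LSC1 (672) exceeded LSC2 (566), the only group in which it did. Together the 10 transcripts took 1.16% to 1.35% of all counts in WT at day 1 and 0.905% to 0.922% at day 4, 1.29% to 1.33% and 0.815% to 0.832% in set2Δ, and 1.16% to 1.22% and 0.906% to 0.915% in bre1Δ. In each strain all day 4 libraries lay below all day 1 libraries in this share.

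**Figure D1:**
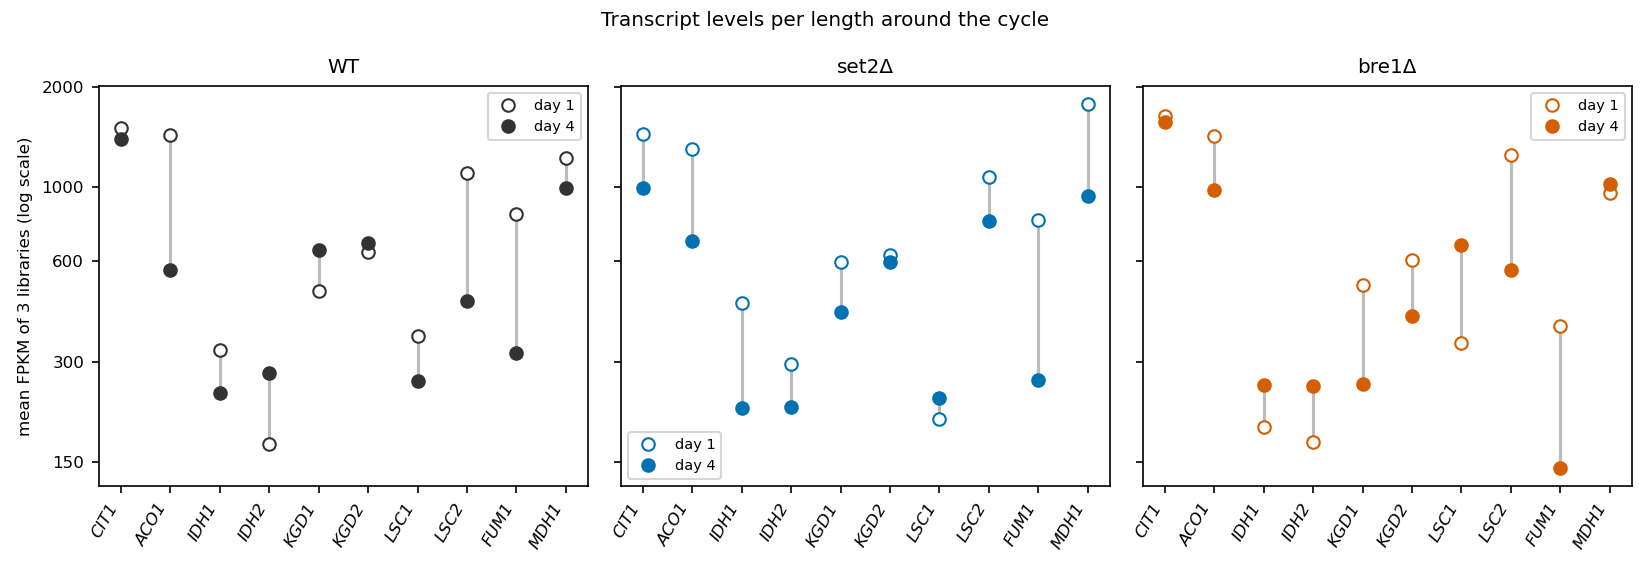
Mean FPKM of 3 libraries (log axis) for the 10 genes in the order of the cycle, 1 panel per strain, with day 1 open and day 4 filled and a grey line joining them. ACO1, LSC2 and FUM1 drop from day 1 to day 4 in every panel, while LSC1 in bre1Δ moves from 342 up to 672.

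Changes from day 1 to day 4 were compared within each strain. This asks how the cycle's transcripts differ between the days and whether that depends on SET2 or BRE1. Age and other differences between cultures of day 1 and day 4 cannot be told apart in this design. In these bulk libraries a lower level in every cell and fewer cells with the transcript cannot be told apart. Levels below are normalised read counts, in CPM after TMM scaling, given in library order 1 to 3. Changes are log2 fold changes ± SE from edgeR's quasi-likelihood test, with 3 libraries a group and p adjusted by Benjamini-Hochberg over 6320 genes, and a gene is said to rise or fall where the adjusted p is under 0.05.

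In WT, 6 of the 10 genes fell (ACO1, IDH1, LSC1, LSC2, FUM1, MDH1) and 2 rose (IDH2, KGD1), while 40.5% of all tested genes fell and 37.2% rose. In set2Δ, 8 fell and only LSC1 rose, beside 37.3% and 34.3% of all genes, and KGD2 did not pass. In bre1Δ, 5 fell (ACO1, KGD1, KGD2, LSC2, FUM1) and 3 rose (IDH1, IDH2, LSC1), beside 38.4% and 37.9%. The median log2 change of the 10 was -0.37 in WT, -0.41 in set2Δ and -0.28 in bre1Δ, where the median of all tested genes was -0.02, -0.03 and -0.02. ACO1, LSC2 and FUM1 fell in all 3 strains, 3 of 10 where 9.15% of tested genes did so. None of the 10 rose in all 3 strains, as 7.8% of tested genes did, and no gene of the 10 had a positive value in all 3. These shares are descriptions, since most genes in the genome passed the threshold.

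**Figure D2:**
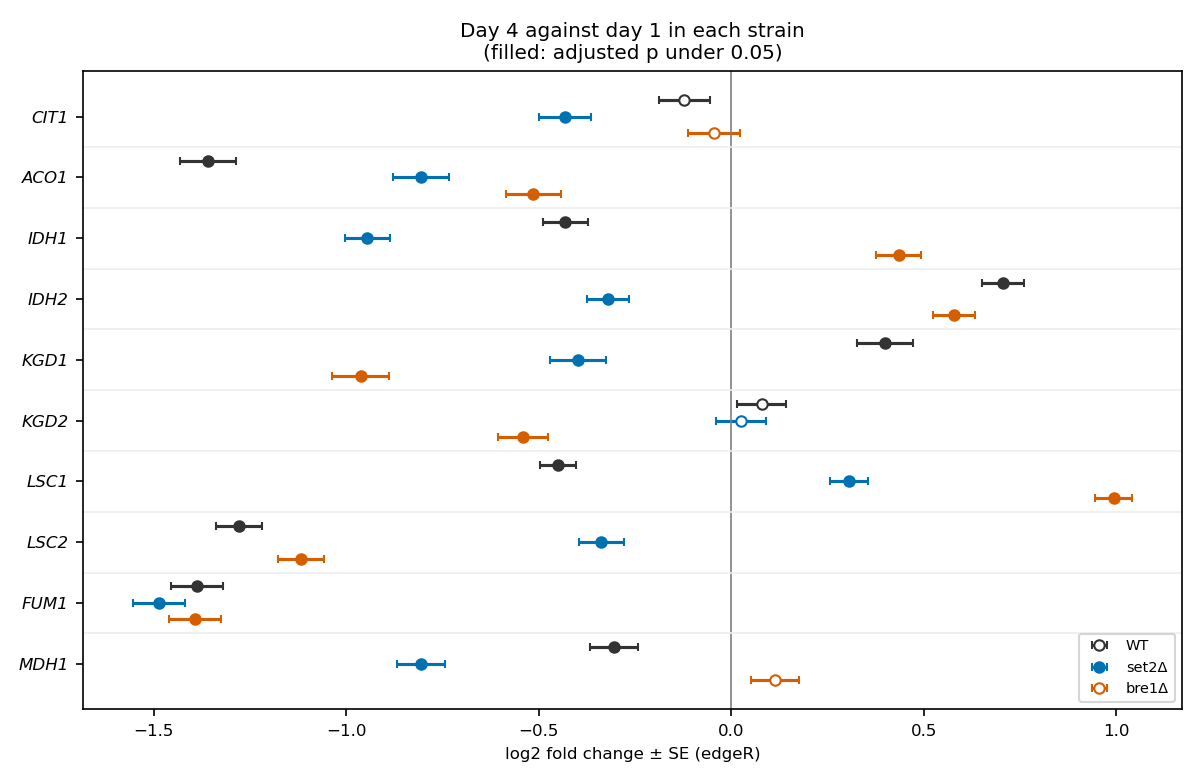
Log2 fold change of day 4 against day 1 (x axis, ± SE from edgeR) for each gene in WT, set2Δ and bre1Δ; filled symbols passed an adjusted p of 0.05. FUM1 lies near -1.4 in all strains, while LSC1 runs from -0.45 in WT to 0.99 in bre1Δ and KGD1 from 0.40 to -0.96.

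FUM1, the fumarase that hydrates fumarate to malate in mitochondria and cytosol, fell in every strain. WT had 1544, 1221 and 1437 CPM at day 1 and 555, 530 and 520 at day 4. In set2Δ the values were 1084, 1025 and 1012, then 386, 370 and 358. In bre1Δ they were 526, 535 and 522, then 199, 204 and 201. No day 4 library reached a day 1 library of its strain, and on this scale the day 1 libraries of bre1Δ lay within the day 4 range of WT. The log2 change was -1.39 ± 0.07 in WT (adjusted p = 7.66e-14), -1.49 ± 0.07 in set2Δ (5.81e-14) and -1.39 ± 0.07 in bre1Δ (1.33e-13). The strains' day effects differed by -0.10 (set2Δ against WT, adjusted p = 0.344) and -0.00 (bre1Δ against WT, adjusted p = 0.967). The first of these passed with library size as the only scaling (-0.21, adjusted p = 0.026).

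ACO1 encodes aconitase, which turns citrate into isocitrate and also binds mitochondrial DNA. WT had 4258, 3350 and 3972 CPM at day 1 and 1489, 1532 and 1497 at day 4. In set2Δ it had 2792, 2538 and 2791, then 1536, 1545 and 1563. In bre1Δ it had 3115, 3211 and 2999, then 2153, 2221 and 2159. The days did not overlap in any strain, and bre1Δ kept the highest level at day 4. The fall was -1.36 ± 0.07 in WT (adjusted p = 4.9e-13), -0.81 ± 0.07 in set2Δ (2.78e-09) and -0.51 ± 0.07 in bre1Δ (1.49e-06). The fall was smaller in both deletions than in WT by a test of the difference, by 0.55 ± 0.10 in set2Δ (adjusted p = 5.61e-05) and 0.84 ± 0.10 in bre1Δ (1.83e-07).

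The transcripts of the 2 isocitrate dehydrogenase subunits moved in opposite directions in WT and in the same direction in each deletion. IDH1, the regulatory subunit, had 408, 379 and 426 CPM in WT at day 1 and 313, 294 and 293 at day 4. In set2Δ it had 450, 418 and 436, then 238, 227 and 213. In bre1Δ it had 196, 196 and 190, then 248, 282 and 257. IDH1 thus fell in WT (-0.43 ± 0.06, adjusted p = 8.36e-07) and in set2Δ (-0.94 ± 0.06, 9.24e-12) and rose in bre1Δ (0.44 ± 0.06, 8.64e-07), where its day 1 level was the lowest of the 6 groups. IDH2, the catalytic subunit, had 196, 219 and 234 CPM in WT at day 1 and 358, 350 and 352 at day 4. In set2Δ it had 294, 297 and 285, then 238, 242 and 222. In bre1Δ it had 173, 185 and 181, then 269, 271 and 264. IDH2 rose in WT (0.71 ± 0.05, adjusted p = 1.83e-10) and bre1Δ (0.58 ± 0.05, 4.78e-09) and fell in set2Δ (-0.32 ± 0.05, 2.46e-05). The day effect in set2Δ differed from that in WT (-1.03 ± 0.08, adjusted p = 1.77e-10).

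KGD1 and KGD2 encode the E1 and E2 subunits of 2-oxoglutarate dehydrogenase, which makes succinyl-CoA. KGD1 had 1908, 1482 and 1769 CPM in WT at day 1 and 2225, 2346 and 2227 at day 4. In set2Δ it had 1677, 1595 and 1601, then 1229, 1223 and 1248. In bre1Δ it had 1499, 1445 and 1410, then 769, 691 and 776. KGD1 therefore rose in WT (0.40 ± 0.07, adjusted p = 4.62e-05) and fell in set2Δ (-0.40 ± 0.07, 5.83e-05) and bre1Δ (-0.96 ± 0.07, 1.72e-10), with no overlap of the days in any strain. KGD2 ranged over 901 to 1108 CPM in WT at day 1 and 1066 to 1098 at day 4, and over 750 to 799 and 790 to 797 in set2Δ, so the days overlapped in both. In bre1Δ KGD2 stood at 764 to 803 and then at 513 to 562, a fall (-0.54 ± 0.06, adjusted p = 1.62e-07). LPD1, the E3 subunit shared with pyruvate dehydrogenase, fell in all 3 strains (-0.44, -0.42 and -0.50 in WT, set2Δ and bre1Δ), as did the linking subunit KGD4 (-0.52, -0.43 and -0.58).

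LSC1 and LSC2 encode the alpha and beta subunits of succinyl-CoA ligase, which makes succinate and ATP. LSC1 had 426, 407 and 389 CPM in WT at day 1 and 297, 299 and 299 at day 4. In set2Δ it had 179, 181 and 177, then 225, 224 and 214. In bre1Δ it had 313, 336 and 304, then 624, 640 and 633. LSC1 thus fell in WT (-0.45 ± 0.05, adjusted p = 2.62e-08) and rose in set2Δ (0.31 ± 0.05, 1e-05) and bre1Δ (0.99 ± 0.05, 1.23e-13), and the highest level in the study was that of bre1Δ at day 4. LSC2 had 1714, 1473 and 1702 CPM in WT at day 1 and 654, 675 and 687 at day 4. In set2Δ it had 1232, 1229 and 1225, then 972, 968 and 978. In bre1Δ it had 1564, 1512 and 1417, then 676, 706 and 689. The fall of LSC2 was -1.28 ± 0.06 in WT (adjusted p = 5.12e-14), -0.34 ± 0.06 in set2Δ (3.16e-05) and -1.12 ± 0.06 in bre1Δ (5.77e-13). On this scale the day 4 ranges of WT and bre1Δ overlapped and set2Δ lay above both.

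At the turn of the cycle MDH1, malate dehydrogenase, makes oxaloacetate and CIT1, citrate synthase, uses it. CIT1 ranged over 2296 to 2836 CPM in WT at day 1 and 2259 to 2334 at day 4, and over 2129 to 2250 and 2103 to 2162 in bre1Δ. In set2Δ it stood at 1789 to 1896 and then at 1362 to 1401. CIT1 fell in set2Δ (-0.43 ± 0.07, adjusted p = 8.16e-06), and was past the threshold neither in WT (-0.12, 0.105) nor in bre1Δ (-0.04, 0.558). The WT value passed without replicate 2 or replicate 3 of WT day 1 (adjusted p = 0.0179 and 0.0431, respectively) and with upper quartile scaling (-0.24, adjusted p = 0.00221). MDH1 fell in WT from 1321 to 1487 CPM at day 1 to 1129 to 1171 at day 4 (-0.30 ± 0.06, adjusted p = 0.000144). In set2Δ it fell from 1524 to 1645 CPM to 904 to 914 (-0.81 ± 0.06, 2.86e-10). In bre1Δ the ranges, 827 to 947 and 933 to 1017 CPM, overlapped (0.11, adjusted p = 0.0994, and 0.0402 without replicate 2 of bre1Δ day 1).

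**Figure D3:**
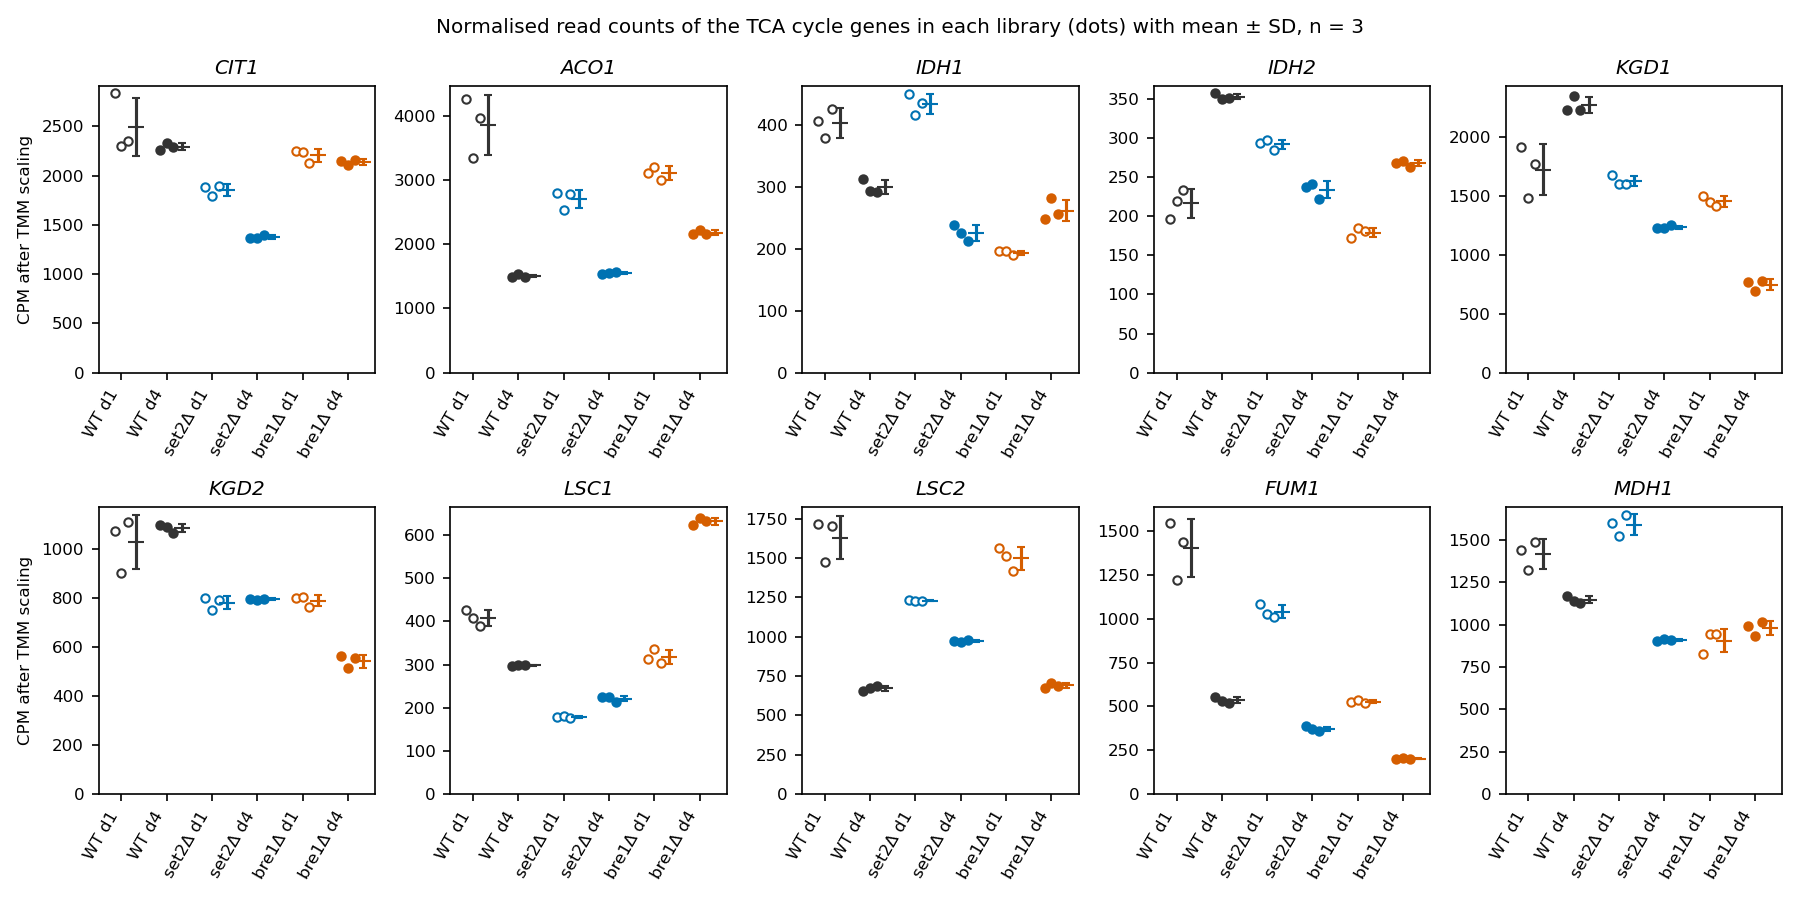
CPM after TMM scaling (y axis, from 0) of each gene in every library, with mean ± SD of 3 libraries beside the dots; open symbols are day 1 and filled symbols day 4. IDH1 and IDH2, and LSC1 and LSC2, take different courses, with LSC1 moving from 318 to 632 CPM in bre1Δ while LSC2 drops from 1498 to 690 CPM there.

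The ratio of FPKM between subunits of 1 enzyme, taken within each library, does not depend on how libraries are scaled to each other. It was described without a test. IDH2 to IDH1 was 0.469, 0.564 and 0.536 in WT at day 1 and 1.11, 1.16 and 1.17 at day 4, a mean rise of 2.20-fold. In set2Δ the ratio was 0.637, 0.694 and 0.639, then 0.975, 1.04 and 1.02. In bre1Δ it was 0.859, 0.918 and 0.930, then 1.06, 0.938 and 1.00. The 3 strains differed at day 1 with no overlap, WT lowest and bre1Δ highest, and lay between 0.938 and 1.17 at day 4. LSC2 to LSC1 was 3.10, 2.79 and 3.38 in WT at day 1 and 1.69, 1.74 and 1.77 at day 4. It was 5.30, 5.25 and 5.34 in set2Δ, then 3.33, 3.33 and 3.52. In bre1Δ it was 3.85, 3.47 and 3.60, then 0.835, 0.850 and 0.840, a mean drop of 4.32-fold. The drop was 1.78-fold in WT and 1.56-fold in set2Δ. The order of the strains at day 1, set2Δ above bre1Δ above WT, became set2Δ above WT above bre1Δ at day 4, without overlap. KGD2 to KGD1 fell in WT and rose in both deletions, from 1.31 ± 0.07 (SD, n = 3) to 1.05 ± 0.03 in WT, from 1.05 ± 0.03 to 1.41 ± 0.01 in set2Δ and from 1.19 ± 0.02 to 1.59 ± 0.03 in bre1Δ. In each of the 9 pairs of days the libraries did not overlap.

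**Figure D4:**
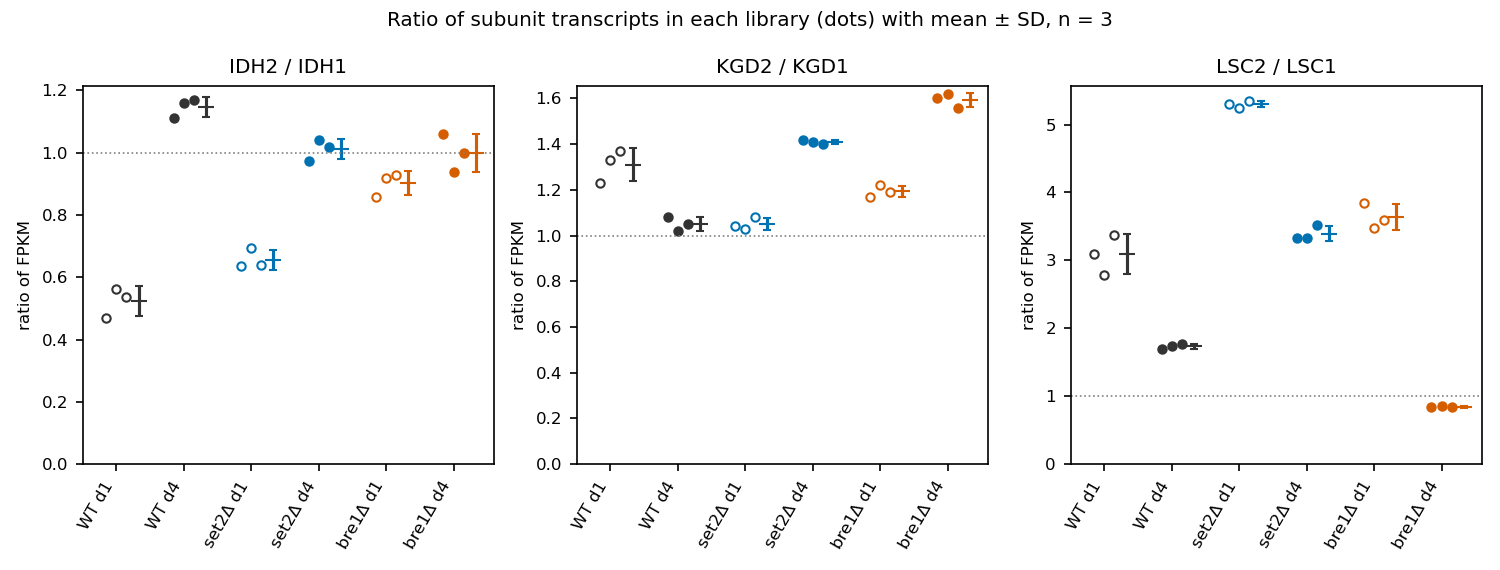
Ratio of FPKM (y axis, from 0) of IDH2 to IDH1, KGD2 to KGD1 and LSC2 to LSC1 in every library, with mean ± SD of 3 libraries and a dotted line at a ratio of 1. The LSC2 to LSC1 ratio of bre1Δ drops from 3.64 to 0.842, below 1, and the IDH2 to IDH1 ratio of WT rises from 0.523 to 1.15.

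The deletions were then set against WT on the same day, which asks how the cycle's transcripts stand without SET2 or BRE1. Scaling by library size only, in place of TMM, moved the median of all genes to 0.35 (set2Δ, day 1), 0.16 (set2Δ, day 4), 0.32 (bre1Δ, day 1) and 0.31 (bre1Δ, day 4), whereas with TMM these medians were -0.01, -0.10, 0.02 and 0.04. The direction of a small change is therefore relative to that choice, and calls that held under both are named first. In set2Δ at day 1, 6 of 10 genes were lower and 2 higher than in WT, beside 39.5% and 37.9% of all genes, with a median of -0.40. LSC1 was lower (-1.19 ± 0.05, adjusted p = 7.92e-15) and ACO1 was lower (-0.51 ± 0.07, 1.57e-06), while IDH2 (0.43 ± 0.05, 3.84e-07) and MDH1 (0.17 ± 0.06, 0.0195) were higher, under both scalings. The fall of ACO1 was smaller without TMM. In CPM of library totals its libraries overlapped, at 2986 to 3650 in WT (mean 3353) and 2889 to 3123 in set2Δ (mean 3034). MDH1 did not pass without replicate 2 of WT day 1 or without replicate 3 of set2Δ day 1 (adjusted p of 0.077 to 0.0955). CIT1, KGD2, LSC2 and FUM1 were lower with TMM (-0.43 to -0.40) and did not pass with library size only, where their values were -0.06 to -0.03. IDH1 and KGD1, at 0.10 and -0.08 and not past the threshold, were higher with library size only (0.47 and 0.29). IDH1 also passed without replicate 3 of WT day 1 (adjusted p = 0.0428), and KGD1 without replicate 2 of WT day 1 (0.0116).

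In set2Δ at day 4, 8 of 10 were lower and 1 higher, beside 44.0% and 34.7% of all genes, with a median of -0.44. KGD1 (-0.88 ± 0.07, adjusted p = 5.61e-10), CIT1 (-0.74 ± 0.07, 2.39e-09), IDH2 (-0.59 ± 0.05, 2.49e-09) and FUM1 (-0.53 ± 0.07, 2.84e-07) were lower. KGD2 (-0.45), LSC1 (-0.43) and IDH1 (-0.41) were lower as well, and LSC2 was higher (0.53 ± 0.06, 4.56e-08), each under both scalings. Without TMM these falls were smaller and the rise of LSC2 was larger. In mean CPM of library totals, set2Δ and WT stood at 828.6 and 947.9 for KGD2 and 230.6 and 260.7 for LSC1. For IDH1 they stood at 235.6 and 262.1, and for LSC2 at 1015 and 587.5. MDH1 was lower (-0.34 ± 0.06, adjusted p = 4.7e-05) and did not pass with library size only (-0.08, 0.178), and ACO1 (0.04, 0.623) was higher with it (0.29, 0.000307).

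In bre1Δ at day 1, 9 of 10 were lower than in WT and none had a positive value, in edgeR or DESeq2, beside 35.8% lower and 35.8% higher among all genes, and the median was -0.34. With library size only, 4 of the 10 passed: FUM1, IDH1 and MDH1, lower under both scalings, and LSC2, which turned from -0.12 (adjusted p = 0.0695) to higher (0.18). FUM1 was 2.65-fold lower (-1.41 ± 0.07, adjusted p = 2.2e-13), and IDH1 (-1.06 ± 0.06, 2.2e-12) and MDH1 (-0.64 ± 0.06, 8.45e-09) were lower. ACO1, KGD2 and LSC1, lower with TMM (-0.38 to -0.31), were not past the threshold with library size only, and CIT1, IDH2 and KGD1, also lower with TMM (-0.27 to -0.18), took the opposite sign there. The KGD1 libraries overlapped between the strains (1410 to 1499 CPM in bre1Δ, 1482 to 1908 in WT). CIT1 did not pass without replicate 1 of WT day 1 or replicate 3 of bre1Δ day 1 (adjusted p of 0.0756 to 0.207), nor in edgeR fits of the 6 libraries of these groups alone, with a replicate block (-0.17, adjusted p = 0.17) or without it (-0.17, 0.177). In those 6 libraries KGD1 passed with the block (adjusted p = 0.0468) and not without it (0.066). With the block ACO1 had an adjusted p of 0.0404, beside 0.000574 in the main fit over all 18 libraries. LSC2 passed without replicate 2 of WT day 1 or without replicate 1 or 2 of bre1Δ day 1 (0.00309 to 0.0488).

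In bre1Δ at day 4, 6 of 10 were lower and 2 higher than in WT, beside 41.6% and 44.8% of all genes, with a median of -0.21. KGD1 (-1.60 ± 0.07, adjusted p = 1.57e-14), FUM1 (-1.41 ± 0.07, 2.28e-14), KGD2 (543 ± 26.3 CPM beside 1085 ± 16.6, 4.81e-12) and IDH2 (-0.40 ± 0.05, 6.52e-07) were lower under both scalings. LSC1 (1.08 ± 0.05, 6.26e-15) and ACO1 (0.53 ± 0.07, 6.22e-07) were higher under both. The fall of IDH2 was smaller without TMM, with means of 282.0 CPM of library totals in bre1Δ and 308.8 in WT. IDH1 (-0.19) and MDH1 (-0.23) were lower with TMM and did not pass with library size only (0.08 and 0.04), and CIT1 (-0.10) and LSC2 (0.04), not past the threshold, were higher with it (0.17 and 0.31). The KGD1 and KGD2 values of bre1Δ at day 4, 691 to 776 and 513 to 562 CPM, were the lowest of the 6 groups for both genes.

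**Figure D5:**
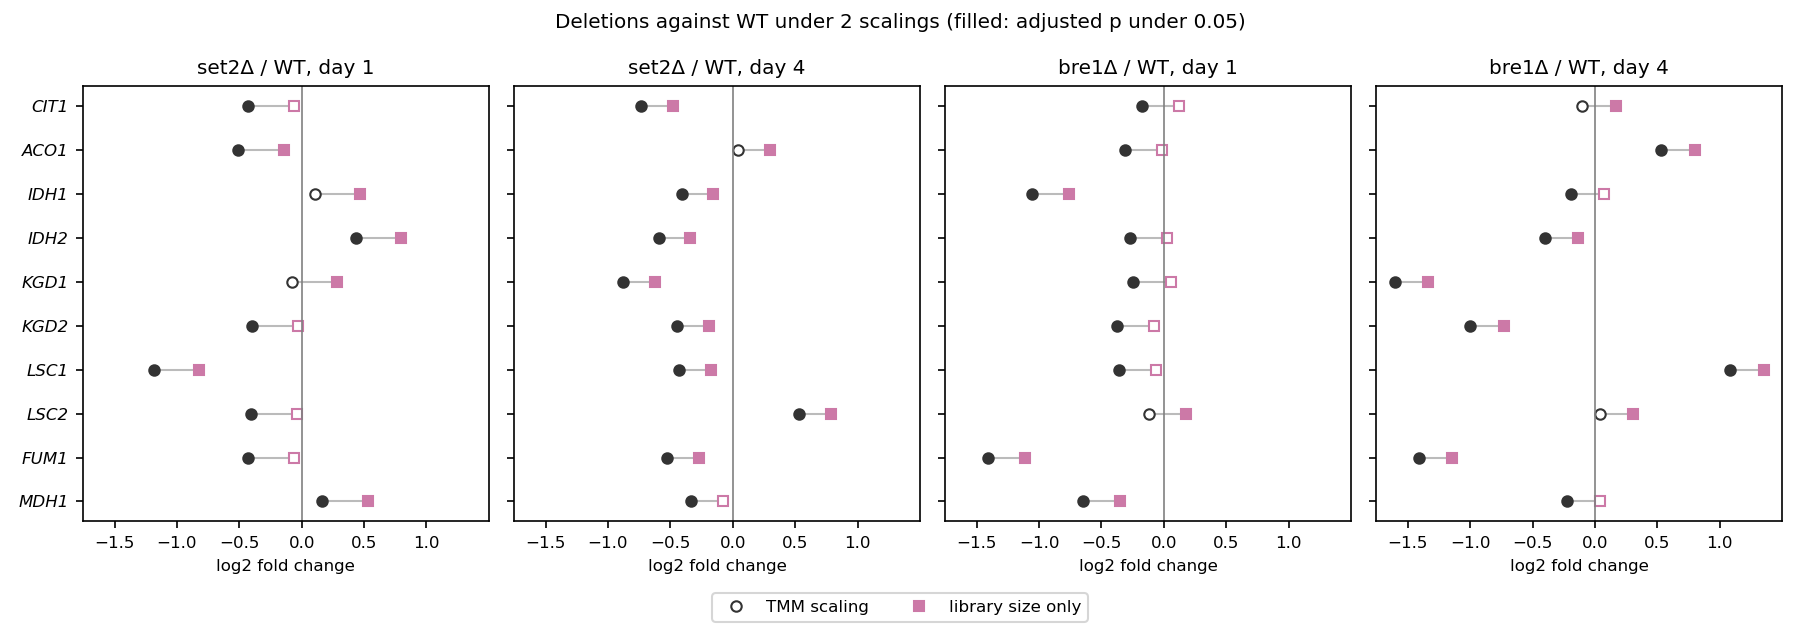
Log2 fold change of each deletion against WT at each day (x axis) with TMM scaling (circles) and with library size only (squares), joined by a line; filled symbols passed an adjusted p of 0.05 in edgeR. Library size only shifts every gene to the right by about the shift of the median of all genes, which moves small falls across 0 and leaves FUM1 in bre1Δ and LSC1 in set2Δ at day 1 well below it.

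Set against each other, the deletions differed in most of the 10 genes. At day 1, 4 were higher and 5 lower in bre1Δ than in set2Δ, beside 39.4% and 40.0% of all genes. LSC1 was the most raised (0.83 ± 0.05, adjusted p = 1.77e-12) and IDH1 the most lowered (-1.16 ± 0.06, 1.74e-13). KGD1 (-0.16, adjusted p = 0.047) did not pass in 13 of the 18 fits that left out 1 library, of any group (0.0521 to 0.137), nor with median of ratios scaling (0.0613). ACO1 (0.20, adjusted p = 0.0152) did not pass without replicate 2 of either strain at day 1 (0.0826 and 0.085) or with library size only (0.0688). At day 4, 5 were higher and 4 lower, beside 42.5% and 41.6%. LSC1 was 1.52 ± 0.05 higher (adjusted p = 8.31e-17) and CIT1 0.64 ± 0.07 higher (1.93e-08), while KGD1 was lower (-0.73 ± 0.07, 8.93e-09) and FUM1 stood at -0.88 ± 0.07 (adjusted p = 8.37e-11).

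The day effects of the strains were compared by a test of the difference. Against WT, the day effect of set2Δ was higher for 3 genes and lower for 5, beside 34.8% and 37.9% of all genes, and that of bre1Δ was higher for 4 and lower for 2, beside 40.0% and 36.9%. Between the deletions, the day effect of bre1Δ was higher for 6 and lower for 3, beside 36.7% and 35.1%. The comparisons of both deletions with WT share the WT libraries, so their values are set side by side only. For LSC1 the difference was 0.76 ± 0.07 in set2Δ and 1.44 ± 0.07 in bre1Δ. For KGD1 it was -0.80 ± 0.10 and -1.36 ± 0.10, and for IDH1 it was -0.51 ± 0.08 and 0.87 ± 0.08. For IDH2 the difference between bre1Δ and WT (-0.13, adjusted p = 0.137) passed without replicate 3 of WT day 1 (0.0276), and for LSC2 (0.16, adjusted p = 0.085) it passed without replicate 2 of WT day 1 or replicate 1 of bre1Δ day 1 (0.00601 and 0.0482).

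Across the 18 libraries the 10 genes did not form 1 pattern. Pearson's r of log2 CPM with the mean of the other 9 ran from 0.84 for FUM1 and 0.76 for MDH1 down to -0.14 for IDH2 and -0.31 for LSC1. Among pairs, IDH1 and MDH1 (0.96), KGD1 and KGD2 (0.94) and ACO1 and LSC2 (0.83) were the most alike, and IDH2 and LSC2 (-0.73) the least. The subunit partners gave 0.44 (IDH1 and IDH2) and -0.25 (LSC1 and LSC2). These values describe 18 libraries in 6 groups, and all genes of a library share its depth and scaling. The genes outside the 10 most like their mean were LAT1 (r = 0.97) and PDA1 (0.96), subunits of the pyruvate dehydrogenase that feeds the cycle, COQ4 (0.96), needed for making coenzyme Q, ARP4 (0.96), a nuclear actin-related protein, and TMT1 (0.95), a methyltransferase that acts on trans-aconitate. The least like were 3 genes of ribosomal proteins, RPL29 (-0.97), RPL12B (-0.96) and RPL14B (-0.93). On FPKM in place of TMM-scaled CPM these 3 gave -0.74, -0.79 and -0.83, at ranks 4884, 4940 and 4980 counted from the most alike. RPL29 and RPL12B were thus not among the 3 least like on that scale. LAT1, PDA1, COQ4, ARP4 and TMT1 gave 0.94, 0.92, 0.92, 0.96 and 0.95 on FPKM, with PDA1 and COQ4 at ranks 12 and 14.

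Succinate dehydrogenase, which oxidises succinate to fumarate and belongs to the respiratory chain too, split in WT. SDH1 (0.48), SDH2 (0.29) and SDH4 (0.57) rose by day 4, and SDH3 fell from 1694 ± 196 CPM to 673 ± 9.77 (SD, n = 3; -1.33 log2). In set2Δ, SDH1 (-0.50), SDH3 (-0.95) and SDH4 (-0.88) fell and SDH2 (-0.06) did not pass. In bre1Δ all 4 fell (-0.17 to -0.56), SDH1 by the least and not past the threshold when ribosomal protein genes were left out of the scaling (adjusted p = 0.0503). At day 4 SDH1, SDH2 and SDH4 were lower than in WT under both scalings, at -1.19, -0.66 and -0.98 in set2Δ and -1.23, -1.60 and -1.88 in bre1Δ. SDH3 was higher than in WT in bre1Δ (0.55) under both scalings. In set2Δ it was lower with TMM (-0.17) and did not pass under the other scalings or in DESeq2. Among all genes, 44.0% were lower and 34.7% higher in set2Δ at day 4, and 41.6% and 44.8% in bre1Δ. The 7 genes for assembly of the enzyme and paralogs of its subunits had medians of -0.04, 0.32 and -0.49 over the day in WT, set2Δ and bre1Δ, with 3 higher and 3 lower in WT (37.2% and 40.5% of all genes), 4 and 3 in set2Δ (34.3% and 37.3%), and 2 and 5 in bre1Δ (37.9% and 38.4%).

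Counts in the lists that follow are read beside the shares of all tested genes that fell and rose over the day, which were 40.5% and 37.2% in WT, 37.3% and 34.3% in set2Δ, and 38.4% and 37.9% in bre1Δ. The 8 isozymes of the cycle's enzymes all fell in WT by day 4, with a median of -1.52 beside -0.02 for all tested genes. The steepest was MDH2, the cytosolic malate dehydrogenase of gluconeogenesis, from 1269 ± 136 to 168 ± 5.44 CPM (-2.92 log2). In set2Δ, 6 fell and 2 rose (CIT3 by 2.21, IDP3 by 1.37), and in bre1Δ, 5 fell and 2 rose, with MDH2 at 0.94. CIT3, another mitochondrial citrate synthase, stood at 30.4 ± 0.64 CPM in set2Δ at day 1 and at 1550 ± 298 in WT (-5.67 log2, lower under both scalings). CIT2, the peroxisomal citrate synthase and a target of the retrograde pathway, fell by 0.24 in WT, 0.82 in set2Δ and 0.79 in bre1Δ on the log2 scale.

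Of 10 genes for pyruvate entry, 8 fell and 2 rose in WT (40.5% and 37.2% of all genes), 6 and 2 in set2Δ (37.3% and 34.3%), and 8 and 1 in bre1Δ (38.4% and 37.9%), with medians of -0.52, -0.55 and -0.41. PDA1 (-0.84, -0.60, -0.30) and LAT1 (-0.51, -0.49, -0.44) fell in all 3 strains, in that order of strains. Pyruvate carboxylase PYC1, which makes oxaloacetate, rose in WT (0.67) and fell in set2Δ (-2.24) and bre1Δ (-1.11). Of 7 mitochondrial carriers of cycle acids, 4 fell and 3 rose in WT, 5 fell and 1 rose in set2Δ, and 6 rose and 1 fell in bre1Δ. The medians were -1.02, -0.80 and 0.85, and the counts in WT lie near the shares of all genes, 40.5% and 37.2%. The dicarboxylate carrier DIC1 rose in bre1Δ from 24.5 ± 1.59 to 71.5 ± 2.04 CPM (1.54 log2) and fell in WT from 91.9 ± 18.7 to 37.6 ± 0.79 (-1.29 log2). The oxodicarboxylate carrier ODC1 did likewise (0.93 and -1.36). The 7 genes that lead from the cycle to glutamate and aspartate were mixed, with 3 higher and 3 lower in WT, 2 and 4 in set2Δ, and 4 and 3 in bre1Δ, and the mitochondrial aspartate aminotransferase AAT1 rose in all 3 strains (1.81, 0.35, 1.18).

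Of the regulators, HAP4, the activating subunit of the HAP complex, rose in WT from 762 ± 33.8 to 1728 ± 32.4 CPM (1.18 log2). It fell in set2Δ from 1130 ± 27.6 to 439 ± 12.3 CPM (-1.37) and in bre1Δ from 309 ± 10.5 to 280 ± 5.93 CPM (-0.14). At day 4 it was lower than in WT in set2Δ (-1.98) and bre1Δ (-2.62) under both scalings. HAP5 rose in all 3 strains (0.41, 0.67, 0.44). HAP2 rose in set2Δ (0.44) and bre1Δ (0.35), and HAP3 rose in WT (0.83) and fell in set2Δ (-0.93). Of the 5 genes of the retrograde pathway, 4 rose and 1 fell in WT (37.2% and 40.5% of all genes), 0 and 1 in set2Δ (34.3% and 37.3%), and 1 and 3 in bre1Δ (37.9% and 38.4%). RTG2, the sensor of the pathway, rose in WT (0.48) and fell in bre1Δ (-0.60), and DLD3, a target gene, rose in WT (1.35) and fell in set2Δ (-0.83) and bre1Δ (-0.86). Over these lists, other scalings or DESeq2 ended the day calls of RTG1, SDH6, SDH7 and GLN1 in WT, PDX1 and CTP1 in set2Δ and SDH1 and SDH5 in bre1Δ. They added calls for SDH5 in WT (lower), SDH2 and RTG1 (lower) and PYC2 and MKS1 (higher) in set2Δ, and MDH3 and PYC2 (higher) in bre1Δ.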

How the data were processed

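The authors deposited read counts per gene and FPKM for 18 libraries. Per the submitters' processing notes, FastQC 0.11.8, cutadapt 2.6, STAR 2.7.0b, HTSeq 2.0.2, R 4.2.0, DESeq2 1.36.0 and the sacCer3 build were used. The strand setting and annotation of the counting are not given in the sources used here. The deposited FPKM values followed from the counts, the column totals and a length within 2% of the reference gene length for 99.8% of genes that have both.

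Here genes were filtered with filterByExpr over the 6 groups and their counts tested with edgeR 4.0.16 (R 4.3.3), with TMM scaling, 1 mean per group over all 18 libraries, two-sided quasi-likelihood tests, Benjamini-Hochberg adjustment over 6320 genes and a threshold of 0.05. The fit was tested on simulated counts with known changes. Same-numbered libraries deviated together (correlation of deviations from group means over 0.1 in all 3 pairs) between day 1 and day 4 of set2Δ (0.446, 0.101 and 0.326) and between WT and bre1Δ at day 1 (0.314, 0.231 and 0.302). For these 2 comparisons the replicate numbers were used to pair the libraries in an alternative fit, chosen from the data and not from the labels. The main fit, which gave the changes, SE and adjusted p reported for every comparison, used no pairing. FPKM served for levels between genes, subunit ratios and alternatives with limma 3.58.1. Further alternatives were DESeq2 1.42.0, other scalings, filters, libraries and a correction for gene length. Named are all 10 genes, genes of the pathway lists (1 is not reported here), and, among genes of at least 20 CPM, the 5 most and 3 least like the mean of the 10 (Pearson's r). The 10 genes and the lists were chosen with earlier results of these data known. Shares of counts are given as ranges over libraries without intervals, and SE and SD cover the spread between libraries only.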

Additional observations from a re-analysis of the deposited data

Results flagged for a closer look

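The day effects of the strains differed for most of the 10 genes by a test of the difference itself in edgeR, with an adjusted p under 0.05. This was not particular to the 10. Among all tested genes the day effect was higher for 34.8% and lower for 37.9% in set2Δ against WT. The shares were 40.0% and 36.9% in bre1Δ against WT, and 36.7% and 35.1% in bre1Δ against set2Δ. Values for single genes are differences of log2 fold changes, day 4 against day 1. In set2Δ against WT the day effect was higher for ACO1 (0.55), LSC1 (0.76) and LSC2 (0.94), and lower for CIT1 (-0.31), IDH1 (-0.51), IDH2 (-1.03), KGD1 (-0.80) and MDH1 (-0.50). In bre1Δ against WT it was higher for ACO1 (0.84), IDH1 (0.87), LSC1 (1.44) and MDH1 (0.42), and lower for KGD1 (-1.36) and KGD2 (-0.62). In bre1Δ against set2Δ it was higher for CIT1 (0.39), ACO1 (0.29), IDH1 (1.38), IDH2 (0.90), LSC1 (0.69) and MDH1 (0.92), and lower for KGD1 (-0.56), KGD2 (-0.57) and LSC2 (-0.78). The 3 comparisons share libraries with each other. The levels in the libraries behind each difference stand in the report. With 3 libraries a group, single libraries were not searched for outliers by their gap to the others, and the values without each library stand beside the results they change.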

How the results depend on the processing

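Changes over the day within a strain and differences between day effects that passed the threshold kept their direction under every scaling and tool tried. Of 120 values, those of the replicate block all stayed on their side of the threshold (8 of 10 genes past it in WT over the day, as without the block). A replicate block in fits of only the 6 libraries compared was chosen after seeing the data. It was run for the 2 comparisons whose same-numbered libraries deviated together, and left 19 of 20 values on their side of the threshold. The exception was CIT1 in bre1Δ against WT at day 1, which did not pass in the same 6 libraries without the block either. Without a block, fits of only the groups compared left 115 of 120 calls as they were. Over all groups, 17 of 45 same-numbered pairs had deviations correlated over 0.1 (range -0.301 to 0.446). Some groups gave only negative values, as WT at day 1 and day 4 did (-0.139, -0.125 and -0.146). Among the 3 libraries of another group, a library was most like its own number in 33 of 90 cases. These counts do not show that the replicate numbers mark a pairing. In bre1Δ against WT at day 1, the genes past the threshold went from 9 to 4 with library size only and in all 3 limma fits on log2 FPKM. These settings lack TMM, and in them small changes crossed 0, given here in log2 with library size only, then with limma at a pseudocount of 1, at 0.1, and at 1 without filter. In set2Δ against WT at day 1, KGD1 went to 0.2867, 0.2916, 0.2921 and 0.2916. In bre1Δ against WT at day 1, CIT1 went to 0.1195, 0.1236, 0.1236 and 0.1236, IDH2 to 0.0232, 0.0277, 0.0279 and 0.0277, KGD1 to 0.0549, 0.0592, 0.0593 and 0.0592, and LSC2 to 0.1768, 0.1767, 0.1768 and 0.1767. In bre1Δ against WT at day 4, CIT1 went to 0.1661, 0.1661, 0.1662 and 0.1661, IDH1 to 0.0753, 0.0734, 0.0737 and 0.0734, and MDH1 to 0.0412, 0.0407, 0.0407 and 0.0407. Removing the trend on gene length, a value without a test, took IDH2 in bre1Δ against set2Δ at day 4 to -0.001 and moved 87 other values by more than their SE. Leaving out 1 library gave counts past the threshold of 8 to 9 for the day in WT, 9 in set2Δ and 8 to 9 in bre1Δ, 7 to 9 and 9 for set2Δ against WT at day 1 and day 4, and 8 to 10 and 8 for bre1Δ. It gave 7 to 9 and 9 for bre1Δ against set2Δ, and 8, 6 to 7 and 9 for the differences of day effects (set2Δ and bre1Δ against WT, bre1Δ against set2Δ). DESeq2 changed 1 call of 120.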
